A study of Mus musculus with 6 samples.

Results

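The transcripts of 44 synaptic and mature neuron genes were followed in mouse neural stem cells in which Mina53 had been knocked down. The genes were taken by symbol from a list of 44 names among the 25996 genes of the deposited table, and each symbol had 1 entry. All 6 libraries came from neural stem cells held under proliferation conditions. The 3 shControl libraries carried a control hairpin and a WT genotype label, and the 3 shMina53 libraries carried a hairpin against Mina53 (gene symbol Riox2) and the genotype label Mina53 knockdown. Strain, age and region of origin of the cells, the number of hairpin sequences used, and whether replicates were separate cultures are not given in the sources used here, so p-values reflect only how far these samples lie apart, and that spread may be technical. Values are scaled counts, that is, read counts divided by 1 factor per library by the authors. Group values are means ± SD (n = 3 each). Each fold change is the log2 ratio of knockdown to control with its 95% interval. Tests were two-sided (limma), with Benjamini-Hochberg adjustment across the 21500 genes tested, and a gene was called at an adjusted p under 0.05.

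At a chemical synapse, transmitter is packed into vesicles that carry synaptophysin, synapsins and calcium-sensing synaptotagmins. Vesicles dock at the active zone and fuse through SNARE proteins, while neurexins, neuroligins and scaffolds such as PSD proteins hold the receiving side in register. These genes are best known from mature neurons. Many of them are repressed outside neurons by the zinc finger factor REST, and several, such as the neural cell adhesion molecule Ncam1, are also transcribed in progenitors and glia.

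The knockdown was seen in the libraries. Riox2 (ENSMUSG00000022724) had 290.4, 333 and 307 scaled counts in the control libraries against 121, 125 and 121 in the knockdown libraries, each in the order of replicates 1, 2 and 3 as in all lists of values here, which left 39.4% of the control level (log2 fold change -1.34; adjusted p = 9.1e-05, limma). Riox2 shares 1185 exonic bases with Crybg3 on the other strand, which rose from 186 ± 58.9 to 332 ± 41.4. By exact permutation (two-sided) p was 0.1, the smallest value that 3 against 3 libraries can reach. Recovered reads per library numbered 13753857 to 16811085. The library shControl 3 stood apart from its group: chi-square per degree of freedom between libraries was 37.1 and 22.2 for shControl 3 against shControl 1 and 2, and 6.38 between those 2. Neural stem cell genes were abundant, with Nes at 7519.7 ± 915 and 7386 ± 657 and Sox2 at 7743 ± 222 and 5334 ± 587 in shControl and shMina53. Microglial P2ry12 (1.88 and 2.79) and Csf1r (1.59 and 1.31) were near 0, whereas Cd68, of macrophages and other cells rich in lysosomes, had 214 ± 31.3 and 209 ± 24.0. The other 5 of the 8 microglia and macrophage markers had no entry under their symbols in the deposited table.

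Of the 44 genes, 3 fell and 1 rose in shMina53, and 40 were not called. The vesicle proteins Sv2a and Syp and the synaptotagmin Syt4 fell to between 56.3% and 60.3% of their control levels, while Syt11, the most abundant of the genes, rose to 128%. The share called was 9.09%, beside 8.26% among all genes tested. That background holds many genes of low level, whereas 43 of the 44 genes had a mean of at least 10. With only the 14872 genes whose mean reached 10 in the fit, 11.98% were called, and 5 of the 44 genes. By direction, the background was 4.47% lower and 3.79% higher. The share of these genes called is therefore close to that of the transcriptome, and the median log2 fold change was -0.04 over the 44 genes and 0.02 over all genes. In bulk RNA, fewer cells of a type and less RNA per cell cannot be told apart. Groups did not overlap for 19 genes (12 lower and 7 higher in shMina53), or 43.2%, beside 29.1% of all genes tested. The 29.1% also includes the genes of low level, so the shares are not like for like. At an unadjusted limma p under 0.05 there were 10 lower and 4 higher, beside 23.6% of all genes. For 35 of the 40 uncalled genes the 95% interval lay within 1 log2 unit of no change on both sides. The intervals of the called genes Sv2a and Syt11 did too, so this mark does not show that a gene was unchanged.

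**Figure D1:**
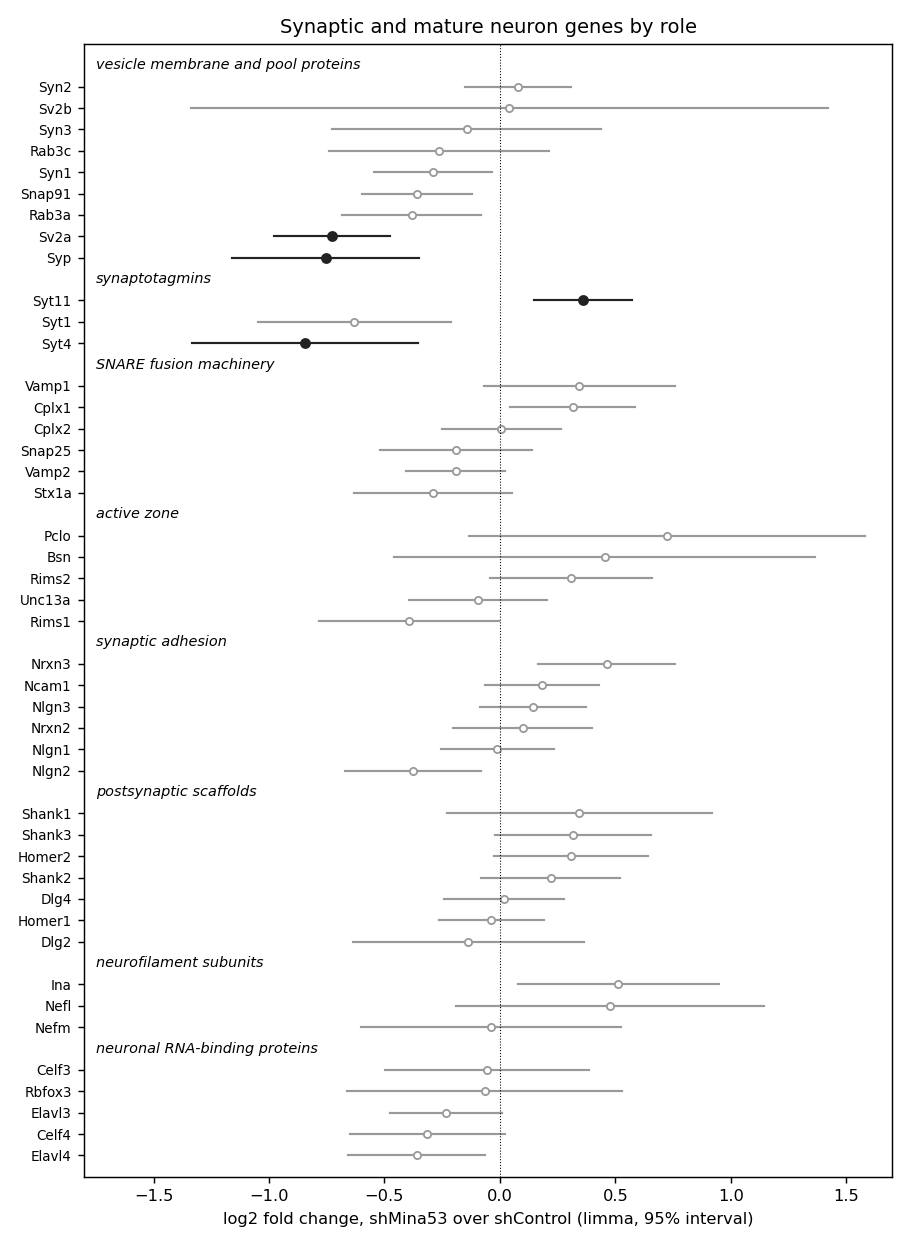
Log2 fold change (shMina53 over shControl, 3 libraries per group) of each of the 44 genes, grouped by role, with the limma 95% interval as a line. Filled black points are the 4 called genes: Sv2a, Syp and Syt4 lie below 0 and Syt11 above it, while the 40 open points were not called.

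The count moved with the method and with the libraries used. When limma was run with plain eBayes, neither robust nor trended, 0 of the 44 and 32 genes in all were called; Sv2a had an adjusted p of 0.0933, and those of Syp, Syt4 and Syt11 were higher. edgeR on the recovered reads called 5 of the 44 genes, beside 11.9% of the genes it tested; Nrxn3 was the addition. With the trend of expression with transcript length removed, 7 were called, beside 10.3%. Without shControl 3, 10 were called, 8 lower and 2 higher, beside 11.6%. Without shControl 1, 8 were called beside 13.0%, and without shControl 2, 1 was called beside 3.08%. Without shMina53 1, 2 or 3 the counts were 2, 1 and 2, beside 4.93%, 2.78% and 2.33%. Sv2a was called in all 6 fits that left out 1 library, and no other of the 44 genes was.

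The genes differed widely in level. Per kilobase of exon, Syt11 had a scaled count of 2383 in shControl against 3061 in shMina53, ahead of Ncam1 (557 and 627), Cplx2 (542 and 540.2), Vamp2 (443 and 388) and Nlgn2 (460.0 and 352). Syt11 alone made up 31.0% of the summed scaled counts of the 44 genes, and the 5 genes with the most counts 62.5%. Genes used to mark mature neurons were spread over the range. Syn1 had 171 and 140 per kilobase and Elavl3 132 and 111, while others were lower. Rbfox3, the NeuN antigen, had 6.39 and 6.19 per kilobase, the neurofilament gene Nefl 5.78 and 8.17, the calcium sensor Syt1 15.7 and 10.04, and Sv2b 0.339 and 0.368. Snap25, the SNARE of neuronal exocytosis, stood at 28.6 and 25.0. Sv2b, with a mean under 10 scaled counts, was the lowest of the 44, and 39 genes had a mean of at least 50. Next above Sv2b per kilobase lay Dlg2 (3.25 and 2.95), Syn3 (4.24 and 3.72) and Shank1 (4.26 and 5.40).

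**Figure D2:**
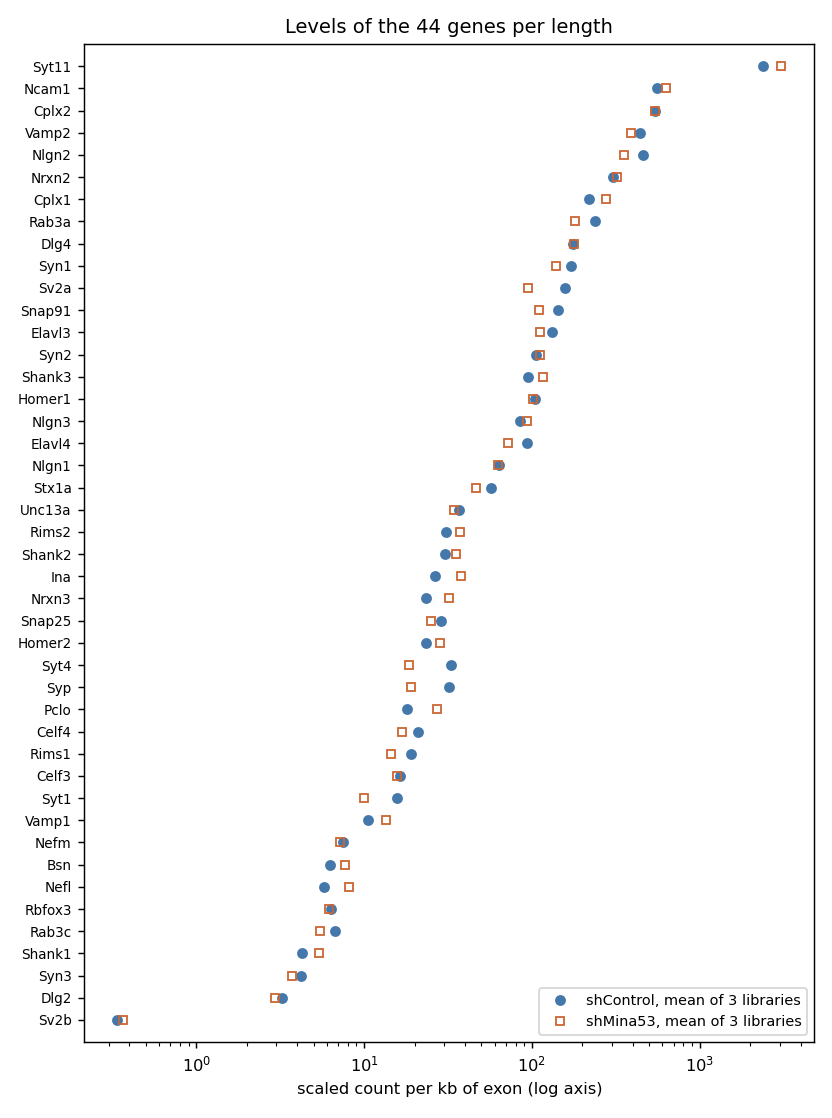
Scaled count per kilobase of exon (log axis) for each of the 44 genes, as the mean of 3 libraries in shControl (filled circles) and shMina53 (open squares), in order of level. Syt11 stands above all others at 2383 and 3061, and Sv2b lies lowest at 0.339 and 0.368.

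Of 9 genes of the vesicle membrane and vesicle pool, 2 were called lower and 0 higher, beside 4.47% and 3.79% of all genes. A negative fold change was found in 7 of them, beside 48.5% of all genes, and the median was -0.29, beside 0.02. At an unadjusted limma p under 0.05, Syn1, Rab3a and Snap91 were lower too, beside 23.6% of all genes in either direction. Of these 9, edgeR called Sv2a and Syp, beside 11.9% of the genes it tested. The summed scaled count of the 9 genes was 4181, 4183 and 4162 in shControl against 3384, 3297 and 3269 in shMina53. The sums did not overlap, and the sum of shControl 3 lay with its group. Single genes of that library varied in both directions. Its log2 ratio to the mean of shControl 1 and 2 was 0.43 for Rab3a and -0.84 for Syn3. Sv2a (ENSMUSG00000038486; chromosome 3, 96181151 to 96195521, plus strand, mm10), a vesicle glycoprotein that binds synaptotagmin, had 670.4, 767 and 761 scaled counts in shControl against 447, 471 and 408 in shMina53. Every knockdown library lay under every control library. The log2 fold change was -0.73 (interval -0.98 to -0.48; adjusted p = 0.00164, limma), and without 1 library it ran from -0.79 to -0.67 with adjusted p up to 0.0227.

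Syp (ENSMUSG00000031144; chromosome X, 7638471 to 7653256, plus strand), synaptophysin, a major membrane protein of synaptic vesicles, had 157, 193 and 152 scaled counts in shControl against 125, 82.0 and 92.6 in shMina53. The groups did not overlap, and the gap between shControl 3 and shMina53 1 was small. Its log2 fold change was -0.75 (interval -1.16 to -0.35; adjusted p = 0.0235, limma). The call was lost without shControl 2 (adjusted p = 0.127), shMina53 2 (0.138) or shMina53 3 (0.114).

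The other vesicle genes were not called. Rab3a, the small GTPase that tethers vesicles, had 447, 505 and 643 scaled counts in shControl against 422, 431 and 360.3 in shMina53. The groups did not overlap, and the spread among controls was the larger (log2 fold change -0.38, interval -0.68 to -0.08; adjusted p = 0.111). Syn1, which ties vesicles to the cytoskeleton, had 622, 569 and 504 against 451, 462 and 469 (-0.29; adjusted p = 0.156). Snap91, the clathrin adaptor that helps to retrieve vesicles, had 1299 ± 127 against 1011 ± 62.9 (-0.36; adjusted p = 0.0591). Both had no overlap, and both were called lower without shControl 3 (adjusted p = 0.0251 and 0.00800). Snap91 was also called by DESeq2 (adjusted p = 0.0308) and with the length trend removed (0.00429, limma), and Rab3a was called lower without shControl 1 (-0.50; adjusted p = 0.0248, limma). With the length trend removed, the log2 fold change was -0.19 for both Syn1 and Rab3a (adjusted p = 0.33 and 0.29, limma). Syn2 stood at 744 ± 38.9 and 785 ± 21.5 (interval -0.15 to 0.31). In the reported fit, of the 3 synapsins only Syn1 had an interval clear of 0. Syn3 (52.0 ± 15.8 and 45.7 ± 7.20), Rab3c (80.8 ± 20.9 and 65.9 ± 5.84) and Sv2b (2.84 ± 1.66 and 3.09 ± 1.92) rested on few reads. Within each library the ratio of Sv2a to Syn2, which are both vesicle proteins, was 0.940, 0.975 and 1.04 in shControl against 0.559, 0.593 and 0.536 in shMina53.

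Of the 3 synaptotagmins, Syt4 fell, Syt11 rose and Syt1 was not called. Syt1 is the fast calcium sensor of release, whereas Syt4 and Syt11 are forms that lack a residue needed for calcium binding and act in other trafficking steps. Syt4 (ENSMUSG00000024261; chromosome 18, 31437808 to 31447406, minus strand) had 108, 119 and 157 scaled counts in shControl against 51.2, 71.6 and 93.8 in shMina53. The groups did not overlap, with shControl 3 the highest and shMina53 1 the lowest (log2 fold change -0.84, interval -1.33 to -0.36; adjusted p = 0.0332). Its call was lost without shControl 2 (adjusted p = 0.0899), shMina53 1 (0.141) or shMina53 2 (0.102). Syt1 had 138, 149.7 and 105 against 94.7, 84.1 and 72.3, again with no overlap (-0.63, interval -1.05 to -0.21; adjusted p = 0.0589), and was called lower without shControl 3 (adjusted p = 0.00657) and with the length trend removed (0.0181, limma).

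Syt11 (ENSMUSG00000068923; chromosome 3, 88744700 to 88775164, minus strand) went the other way, with 12595, 12259.9 and 12361 scaled counts in shControl against 15272, 15822 and 16705 in shMina53. Controls lay within a narrow range, and every knockdown library was above them (0.36, interval 0.15 to 0.57; adjusted p = 0.0363). The call was lost without shControl 2 (adjusted p = 0.151) or shMina53 1, 2 or 3 (0.0825, 0.173 and 0.153), and the fold change stayed between 0.33 and 0.39. With other scalings the value was 0.35 with TMM and 0.40 with upper quartile scaling. The ratio of Syt11 to Syt4 within a library was 116, 103 and 78.8 in shControl against 298, 221 and 178 in shMina53.

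**Figure D3:**
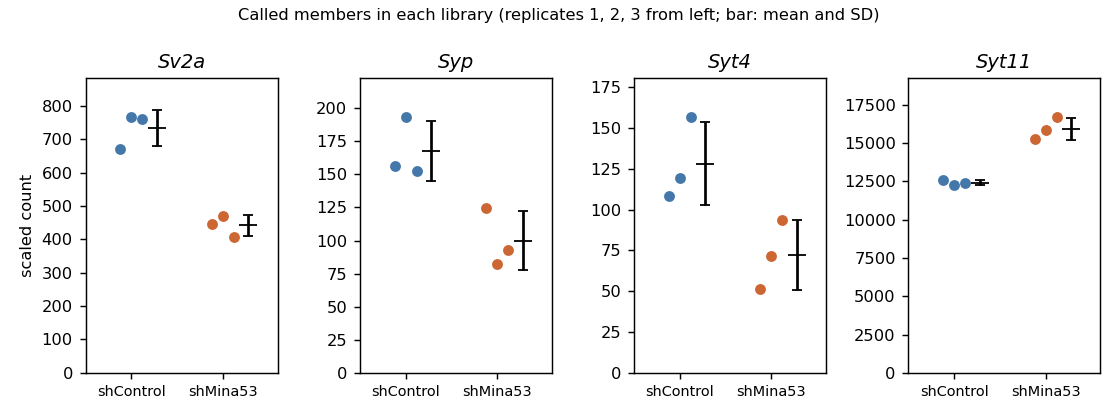
Scaled counts of the 4 called genes in each library (points, replicates 1, 2 and 3 from left to right), with mean and SD beside them. The y axes start at 0; in Sv2a, Syp and Syt4 all shMina53 points lie under the shControl points, and in Syt11 they lie above them.

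Promoter sequences were read from RefSeq (GRCm38.p6), 250 bases before to 50 after each start, for the 31 of the 44 genes that matched, which had 55 such windows. The stretches of Sv2a and Syp that lie before the first annotated exon are shown because both vesicle genes fell. Capitals mark the E-box CAGCTG, a palindrome bound by proneural helix-loop-helix factors. It is present in Sv2a and has no match in the stretch shown of Syp.
Sv2a, chr3:96180977-96181150, plus strand: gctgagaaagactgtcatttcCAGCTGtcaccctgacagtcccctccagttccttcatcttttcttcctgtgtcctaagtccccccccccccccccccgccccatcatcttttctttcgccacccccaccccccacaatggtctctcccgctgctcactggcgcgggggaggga
Syp, chrX:7638330-7638470, plus strand: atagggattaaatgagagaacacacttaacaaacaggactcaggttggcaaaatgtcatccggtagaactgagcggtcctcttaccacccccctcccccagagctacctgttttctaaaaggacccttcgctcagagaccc
CAGCTG occurred in 16 of the 31 genes (51.6%) and in 19.0% of 14256 genes of the table with a promoter, or in 34.5% of their windows and 16.5% of all windows. Sv2a held it, and Syp and Syt11, which also matched, did not. The GC box GGGCGG was in 23 of the 31 genes (74.2%), beside 60.2% of all, but by window in 45.5% of theirs and 54.5% of all.

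REST binds a long element called RE1, which has a left arm, TTCAGCACC, and a right arm whose letters, in reverse complement, are the first capitals of Unc13a. Each arm was searched on both strands. The left arm was in Nlgn1, Syn1 and Unc13a, 9.68% of the 31 genes beside 0.470% of all genes, and the right arm in Unc13a, 3.23% beside 0.260%. These 3 genes are shown because the element is the one most tied to neuronal genes; capitals mark the arms.
Syn1, chrX:20921131-20921160, minus strand: cactgtcggaTTCAGCACCgcggtcagagc
Nlgn1, chr3:26154120-26154149, minus strand: gtgattggagTTCAGCACCctggttactat
Unc13a, chr8:71671725-71671754, minus strand: aGGCGCTGTCCgcgcccccGGTGCTGAAgc
In Unc13a both arms lie just past the start site, on the opposite strand to the gene, with 8 bases between them. The cAMP response element TGACGTCA, a palindrome, was in Celf3 and Syn1 (6.45% beside 3.10%). A match describes these letters only. None of the 3 genes with an RE1 arm was called: Syn1 had a log2 fold change of -0.29, Nlgn1 -0.01 and Unc13a -0.09.

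No gene of the SNARE fusion machinery was called (0 of 6 by limma, beside 8.26% of all genes, and 0 by edgeR, beside 11.9%). At an unadjusted limma p under 0.05 only Cplx1 passed, beside 23.6% of all genes. With so few genes in a role, a count of 0 calls does not set the role apart. The median was -0.09, with 3 genes above and 3 below 0. Cplx2, a complexin that clamps and primes the fusion complex, had 3023, 2809 and 2189 scaled counts in shControl against 2759, 2642 and 2586 in shMina53. The knockdown libraries fell inside the control range, which shControl 3 set at the bottom (0.01, interval -0.25 to 0.26). Cplx1, its paralogue, had 474, 478 and 492 against 712, 568 and 532, with no overlap but a wide spread in the knockdown (0.32, interval 0.04 to 0.59; adjusted p = 0.144). It was called higher with the length trend removed (0.51; adjusted p = 0.00684). Vamp2, the vesicle SNARE, stood at 1686 ± 44.4 and 1477 ± 17.9 (-0.19; adjusted p = 0.269) and its paralogue Vamp1 at 108 ± 17.0 and 137 ± 25.6 (0.34; adjusted p = 0.308). The ratio of Vamp2 to Vamp1 was 14.3, 14.6 and 18.9 in shControl against 10.2, 9.31 and 13.6 in shMina53. Of the plasma membrane SNAREs, Stx1a had 152 ± 5.53 and 124 ± 7.11 with no overlap (interval -0.63 to 0.05), and Snap25 194 ± 21.1 and 169.9 ± 13.3 (interval -0.52 to 0.14).

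The 5 active zone genes were not called either (0 of 5 by limma and 0 by edgeR, beside 8.26% and 11.9% of the genes each tested). At an unadjusted limma p under 0.05 only Rims1 passed, beside 23.6% of all genes. The median of the 5 was 0.31. Pclo and Bsn encode the giant scaffolds piccolo and bassoon. Pclo had 581, 420.4 and 209 scaled counts in shControl against 574, 614 and 651 in shMina53 (0.72, interval -0.14 to 1.58; adjusted p = 0.286). Bsn had 151, 108 and 42.3 against 141, 110.02 and 115 (0.45, interval -0.46 to 1.37). In both, shControl 3 was the lowest library by far, and shControl 1 lay within or above the knockdown range. Without shControl 3 the fold change was 0.31 for Pclo and -0.07 for Bsn. Without shControl 1, Pclo was called higher (1.05; adjusted p = 0.0182, limma). Unc13a, which primes vesicles, had 519.5, 487 and 380.5 against 473, 442 and 378, with overlap (-0.09; adjusted p = 0.741). Rims1 and Rims2, scaffolds that recruit calcium channels, stood at 141 ± 19.5 and 107 ± 15.3 (-0.39; adjusted p = 0.205) and at 321 ± 82.4 and 389.7 ± 31.9 (0.31; adjusted p = 0.280). Rims2 was called higher without shControl 1 (0.48; adjusted p = 0.0494, limma) and stood at 0.10 without shControl 3. These paralogues had fold changes of opposite sign, and Rims1 had no overlap between groups.

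Adhesion molecules that span the synapse gave no call among 6 genes with limma, and 1, Nrxn3, with edgeR. Of all genes tested, 8.26% and 11.9% were called by these tools. At an unadjusted limma p under 0.05, Nrxn3 and Nlgn2 passed, beside 23.6% of all genes, and the median was 0.12. Nrxn3, a presynaptic neurexin, had 337, 286 and 262 scaled counts in shControl against 394, 457 and 367 in shMina53, with no overlap. Its log2 fold change was 0.46 (interval 0.17 to 0.76) and its adjusted p 0.0513 by limma and 0.0450 by edgeR. It was called without shControl 1 or shControl 3 (adjusted p = 0.0144 and 0.0479, limma), and with the length trend removed it was 0.30 and not called (adjusted p = 0.123, limma). Nrxn2 was far more abundant, at 4188 ± 852 and 4435 ± 513 (interval -0.20 to 0.40). The ratio of Nrxn3 to Nrxn2 ran from 0.0627 to 0.0816 in shControl and from 0.0802 to 0.102 in shMina53, with overlap. Nlgn2, the neuroligin of inhibitory synapses, had 3068, 2822 and 2093 against 2293, 2058 and 1754, with shControl 3 inside the knockdown range (-0.38; adjusted p = 0.110). Without shControl 3 it was called lower (-0.54; adjusted p = 6.7e-05). Nlgn1, of excitatory synapses, stood at 852 ± 89.0 and 843 ± 47.5 (interval -0.26 to 0.23) and Nlgn3 at 782 ± 46.4 and 863 ± 24.1 (interval -0.09 to 0.37). Ncam1, which is also made by progenitors, had 5123, 5334 and 4027 against 5258, 5641 and 5404, so that the groups overlapped (0.18; adjusted p = 0.379).

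Postsynaptic scaffolds showed no call among 7 genes by limma or edgeR, beside 8.26% and 11.9% of the genes each tested. At an unadjusted limma p under 0.05, 0 passed, beside 23.6% of all genes. The median was 0.22. Dlg4, the PSD scaffold that binds glutamate receptors, had 2549, 2376 and 2070.4 scaled counts in shControl against 2578, 2520.1 and 2000.4 in shMina53. Both groups covered the same range (0.02, interval -0.24 to 0.28). Its paralogue Dlg2 stood at 53.0 ± 6.04 and 48.1 ± 5.51. The 3 Shank genes, which link receptor scaffolds to actin, had positive fold changes: 0.34 for Shank1, 0.22 for Shank2 and 0.32 for Shank3 (adjusted p = 0.486, 0.380 and 0.245). Shank3 had 1015, 970.3 and 628 against 1123, 1116 and 953, with shControl 3 the lowest. Without that library the fold changes were 0.14 for Shank1, 0.07 for Shank2 and 0.10 for Shank3. Homer1, which ties Shank proteins to metabotropic receptors, stood at 1242 ± 91.9 and 1209 ± 25.7, and Homer2 at 294 ± 63.0 and 358 ± 21.8 (0.31, or 0.12 without shControl 3).

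Neurofilament subunits, which fill the axons of mature neurons, were low and uncalled. By limma and edgeR 0 of 3 were called, beside 8.26% and 11.9% of the genes each tested. At an unadjusted limma p under 0.05 only Ina passed, beside 23.6% of all genes. Ina, internexin, had 66.9, 103 and 87.4 scaled counts in shControl against 142, 106 and 117 in shMina53, with no overlap (0.51, interval 0.08 to 0.95; adjusted p = 0.138). Nefl had 19.5 ± 2.81 and 27.6 ± 4.23, and Nefm 43.2 ± 9.68 and 41.6 ± 6.23. Nefl and Nefm share 1108 exonic bases on opposite strands, and Ina shares 456 with the more abundant Nt5c2. The strand setting of the counting is not given in the sources used here, so these values may hold reads of the neighbour. In all, 9 of the 44 genes share exonic bases with a gene on the other strand whose mean was above 0.1 times their own. They are Celf3, Ina, Nefl, Nefm, Rab3a, Syn1, Syn2, Syn3 and Unc13a, and none was called.

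All 5 neuronal RNA-binding protein genes had negative fold changes, beside 48.5% of all genes, with a median of -0.23. By limma and edgeR 0 were called, beside 8.26% and 11.9% of the genes each tested. At an unadjusted limma p under 0.05 only Elavl4 passed, beside 23.6% of all genes. Elavl3 and Elavl4 encode Hu proteins, which stabilise neuronal transcripts. Elavl3 had 968, 955 and 796 scaled counts in shControl against 738, 779 and 786 in shMina53, with no overlap (-0.23; adjusted p = 0.231). It was called lower without shControl 3 (-0.33; adjusted p = 0.0261). Elavl4 had 494, 437 and 573 against 333, 401 and 437, with shControl 2 just under shMina53 3, and its adjusted p was 0.126. The splicing regulators Celf4 (180.1 ± 18.1 and 144 ± 8.09; adjusted p = 0.242), Celf3 (90.1 ± 18.6 and 85.8 ± 11.2) and Rbfox3 (37.2 ± 4.71 and 36.0 ± 8.72) were uncalled.

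Fold changes differed with gene length, and so did the levels in shControl 3. Exonic length is here the merged length of all annotated exons. The 16 genes of at least 10 kb had a median fold change of 0.16, with 10 above 0, and the 28 shorter genes a median of -0.19, with 10 above 0. For the coding genes whose mean reached 50, the medians were 0.18 for 1319 long and -0.05 for 10063 shorter genes. Over the 44 genes Spearman's rho of length with fold change was 0.333, beside 0.405 over 11382 protein-coding genes; all values come from the same 6 libraries. In shControl 3 the long genes of the set lay 0.41 log2 units under their own mean over all libraries, against 0.13 above it in shControl 1 and 0.03 above it in shControl 2. In the shMina53 libraries they lay 0.04 to 0.10 above it. This library was the lowest of the 6 for 10 of the 16 long genes. Bsn (-1.59) and Pclo (-1.26) were the furthest under the mean of the other controls on the log2 scale. Sv2a, Syp, Syt4 and Syt11 have 3892 to 5211 exonic bases, and all 4 were called both without shControl 3 and with the length trend removed. The genes called lower without shControl 3 were Elavl3, Nlgn2, Snap91, Sv2a, Syn1, Syp, Syt1 and Syt4, and those called higher Nrxn3 and Syt11. What sets shControl 3 apart was not tested.

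**Figure D4:**
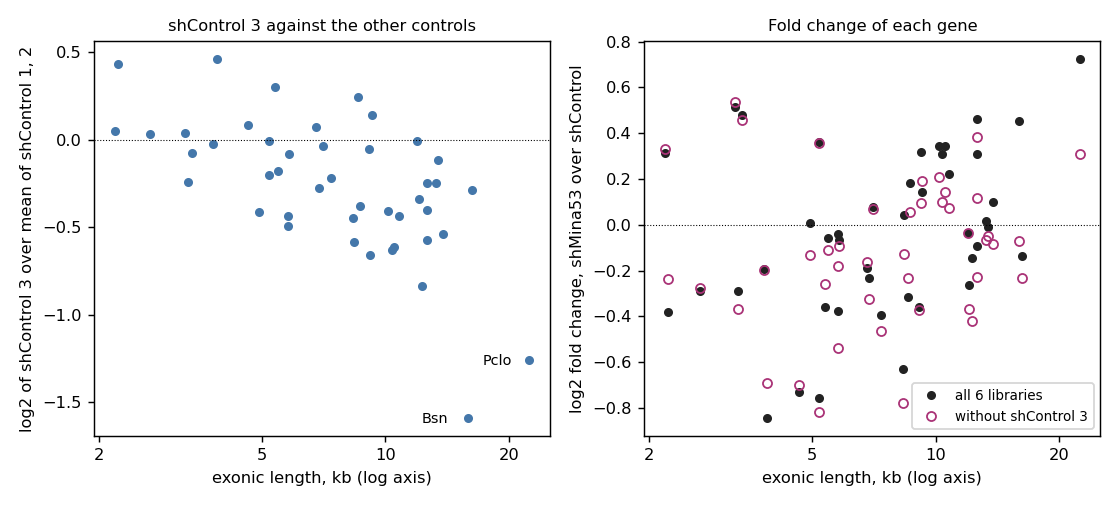
Left, log2 of shControl 3 over the mean of shControl 1 and 2 (with 1 added to each value) against exonic length in kb (log axis) for the 44 genes; Bsn and Pclo lie lowest at -1.59 and -1.26. Right, log2 fold change of shMina53 over shControl with all 6 libraries (filled) and without shControl 3 (open), where the fold change of Pclo goes from 0.72 to 0.31.

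Further synaptic genes changed in both directions. Their lists were chosen with earlier results of these data known, so the shares called are descriptions only. Of 95 tested genes on 3 lists of related genes, 9 were called higher and 5 lower, or 14.7%, and the median was 0.03. Of all genes tested, 8.26% were called (3.79% higher and 4.47% lower). With only genes whose mean reached 10 in the fit, 14 genes of these lists were called, beside 11.98% of all genes in that fit. In the presynaptic list, 3 of 44 were lower and 2 higher. Svop, a vesicle protein related to Sv2a, rose from 294 ± 42.4 to 509 ± 17.3 scaled counts (0.80; adjusted p = 0.00191), opposite in direction to Sv2a. Syt9, a calcium sensor of release, fell from 190.9 ± 12.2 to 106 ± 9.57 (-0.85; adjusted p = 0.00484) and Syt6 from 132 ± 19.8 to 64.1 ± 24.7 (-1.09; adjusted p = 0.0156). Bin1, a membrane-bending protein related to amphiphysin, fell from 1652 ± 130.1 to 1091 ± 114 (-0.60; adjusted p = 0.00447). Sh3gl2, endophilin, rose by less (0.43; adjusted p = 0.0271). Syt6 was not called when shControl 2 or shMina53 1 was left out (highest adjusted p 0.0794), and Sh3gl2 in all fits but that without shControl 3 (up to 0.148), while Svop, Syt9 and Bin1 were called in all 6.

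Among 37 further adhesion and postsynaptic genes, 6 were higher and 2 lower, or 21.6%, beside 8.26% of all genes tested. With only genes whose mean reached 10 in the fit, the share called among all of them was 11.98%. The median was 0.09. This list too was chosen with earlier results known, so its share is a description only. Camk2a, the kinase of postsynaptic plasticity, rose from 69.7 ± 21.8 to 149 ± 13.2 (1.13; adjusted p = 0.00567) and Clstn3, a calsyntenin that organises synapses, fell from 181 ± 12.9 to 99.2 ± 8.88 (-0.86; adjusted p = 0.00506); both were called in all 6 fits without 1 library. Cadm1 and Nrcam, cell adhesion molecules of axons and glia, rose from 994 ± 67.4 to 1400.4 ± 74.0 and from 2427 ± 208 to 3385 ± 179. Cadm1 was lost without shControl 2 or whichever shMina53 library was left out (adjusted p up to 0.0780) and Nrcam without shControl 2, shMina53 2 or shMina53 3 (up to 0.107). Of 14 further neurofilament and RNA-binding genes, Celf5 alone was called, from 178 ± 26.3 to 285 ± 48.8 (0.67; adjusted p = 0.0189); it was lost without any 1 shMina53 library (up to 0.105).

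Markers of other cell types and stages were read beside the same background of 4.47% of all genes lower and 3.79% higher, without a test of any list. The 18 immature neuron markers tested had 4 lower and 1 higher call, 13 had none, and the median was -0.27. The 4 were Stmn3, Mapt, Gap43 and Tubb3, and the higher gene was Map2. Stmn3 and Mapt were called in all 6 fits without 1 library, Gap43 was lost without shMina53 3 (adjusted p = 0.0508), and Map2 was lost without shControl 2 or any 1 shMina53 library (up to 0.204). Tubb3, neuronal tubulin, had 283, 274 and 244 scaled counts in shControl against 179.8, 179 and 194 in shMina53, with no overlap (-0.53; adjusted p = 0.0301). Its call was lost in all fits without 1 library except that without shControl 3 (adjusted p up to 0.139). Dcx, of migrating neurons, had 344, 261 and 225 against 184, 195 and 202, with no overlap and no call (-0.49; adjusted p = 0.0724). Neurod6 and Dlx5 had a mean under 1. The summed level of the list was 29960.2 to 34533 in shControl and 31655 to 32679 in shMina53, ranges that overlapped. Of 7 transmitter identity markers tested, 1 was called higher and 1 lower, with a median of 0.46. The summed level of that list was 13676.7 to 15125.7 in shControl and 18568.5 to 19188 in shMina53, without overlap. The part of a changed number of neurons in the results was not tested. Of 10 astrocyte markers Aqp4, Gja1 and Gjb6 were called higher and 7 were not called, with summed levels of 38865 to 42319 and 44189 to 48461. Oligodendrocyte lineage markers had 5 of 13 lower and 1 higher, with sums of 50526 to 52983 and 48037 to 57279. Neural stem cell markers had 4 of 13 lower, Sox2 among them, and 2 higher. Ependymal Foxj1 rose from 228 ± 16.8 to 409 ± 62.2 (adjusted p = 0.00243, limma), and the summed ependymal markers were 234 to 261 against 370 to 483. Foxj1 made up most of these sums, so they are not a separate observation. Sums were 120 to 181 against 173 to 193 for endothelial and 234 to 335 against 354 to 541 for fibroblast and mural markers. The part of these cell types in the levels of the 44 genes was not tested.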

How the data were processed

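RNA from 6 libraries of mouse neural stem cells, 3 shControl and 3 shMina53, was measured by RNA sequencing. The authors deposited, per the file headers, signal values for each library, group means and a p-value per gene. From the values, a signal is the number of reads over a factor common to the library: within 0.01 reads, 100% of values came out whole, so reads could be recovered. The deposited p-value, whose test is not stated, was not used here for results; its log10 differed from that of DESeq2 on the recovered reads by a median of 1.1e-06. Without giving their roles, the submitters' processing notes list the build mm10 and the tools DESeq2, edgeR, HISAT2 2.0.4, StringTie 1.3.4d, UMI-tools and CASAVA. Deduplication and strand are not given in the sources used here.

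In R 4.3.3, limma 3.58.1 with robust eBayes and a mean-variance trend was run on log2(scaled count + 1), without covariates, for the 21500 genes whose mean reached 1, with Benjamini-Hochberg adjustment. Fold changes are on that scale, which understates those of low genes. All 44 members passed the filter. edgeR 4.0.16 (quasi-likelihood) and DESeq2 1.42.0 were alternatives on recovered reads, beside other pseudocounts, filters, scalings, a lowess length trend (span 0.3, fitted to coding genes whose mean reached 50) and each left-out library. Chi-square values compare recovered reads of library pairs. Annotation, overlaps and lengths are from GENCODE M21 (mm10). The pipeline was tested on simulated data. Members and lists were chosen with earlier results of these data known. Values are printed for each called member, for the uncalled member of highest level per kilobase in each role, and for up to 4 called genes of each further list; other members follow in brief. The replicates carry the numbers 1 to 3 in the labels but no shared culture or day is stated, so they were not paired. Depth was 13753857 to 16811085 reads per library.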

Additional observations from a re-analysis of the deposited data

How the results depend on the processing

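Across 17 alternatives the number of genes called was 1776 in the reported fit, 32 without the trend and robust steps, 1178 with the replicate block and 497 to 2794 without 1 library. Of the 44 members 4 (9.09%) were called, beside 8.26% of all genes. In limma without the trend and robust steps 0 were called, beside 0.149%. On recovered reads edgeR called 5 (11.4%), beside 11.9% of the genes it tested. DESeq2 called 6 (13.6%), beside 8.18% of all 25996 genes. That last share counts genes to which DESeq2 gave no adjusted p, so it is too low to compare directly with the other shares. With the replicate block 2 were called (Sv2a and Syt4, 4.55%), beside 5.48%. With the length trend removed 7 (15.9%) were called, beside 10.3%. Without 1 library the counts were 1 to 10 (2.27% to 22.7%), beside 2.33% to 13.0%. The further synaptic lists had 14 called genes, 0 without the trend and robust steps, and 6 to 21 without 1 library. Upper quartile scaling turned the split of all calls from 815 higher and 961 lower to 1025 and 752. Same-numbered libraries had correlations of deviations of -0.0759, 0.0491 and 0.0295, inside the range of -0.0878 to 0.0677 for unlike-numbered ones. They were thus no more alike than others, which cannot show whether the samples were paired. Under the block Syp and Syt11 had adjusted p = 0.0544 and 0.0557 (limma).

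Of 746 member fold changes under the alternatives, 683 kept their direction and side of the threshold, 16 lost a call, 19 gained one and 28 changed sign. The sign changes were all in uncalled genes. With the length trend removed, Sv2b was at -0.044, Nrxn2 at -0.082 and Dlg4 at -0.16. With upper quartile scaling, Nlgn1 was at 0.032, Homer1 at 0.0069 and Nefm at 0.0041, and DESeq2 put Cplx2 at -0.0061. Without 1 library the ranges were -0.42 to 0.0083 for Syn3, -0.28 to 0.48 for Sv2b, -0.13 to 0.10 for Cplx2, -0.070 to 0.84 for Bsn, -0.082 to 0.21 for Nrxn2, -0.059 to 0.073 for Nlgn1, -0.066 to 0.13 for Dlg4, -0.090 to 0.017 for Homer1, -0.18 to 0.13 for Nefm, -0.17 to 0.10 for Celf3 and -0.18 to 0.15 for Rbfox3. The cause was not tested. With 3 libraries per group, low genes such as Sv2b were measured imprecisely.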

Other observations

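Of 13 genes of the REST repressor complex, which silences neuronal genes outside neurons, 1 was lower and 12 were not called. The share called was 7.69%, close to the 8.26% of all genes tested, and the median log2 fold change was -0.06. The lower gene was Rcor2, a corepressor of that complex, with 1663, 1638 and 1448 scaled counts in shControl against 842, 894 and 740 in shMina53 (-0.94; adjusted p = 0.000212, limma), and it was called in all 6 fits without 1 library. Rest itself stood at 1020.4 ± 67.1 and 953 ± 75.3 (n = 3 per group; adjusted p = 0.647, limma).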
